A study of Mus musculus with 8 samples.

Results

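Heme is made from glycine and succinyl-CoA by a chain of enzymes that starts in the mitochondrion, runs through the cytosol and ends in the mitochondrion, where iron is put into the porphyrin ring. The messenger RNAs of 10 genes of this pathway were followed in the mouse heart: the enzymes Alas1, Alas2, Alad, Uros, Urod, Cpox, Ppox and Fech, in the order of their steps, and Abcb6 and Abcb10, transporters of the ABC family that sit in membranes of the mitochondrion or of vesicles and have been tied to porphyrin and heme handling. They were chosen by gene symbol, and all 10 were among the 18193 genes that the arrays measured with at least 1 probe set naming that gene alone. A probe set is a group of short probes read as 1 value. The 10 genes had 23 such probe sets of 45037 on the array, and each gene was read from its brightest one, taken by the mean of all 8 arrays.

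In the heart, heme serves the cytochromes of the respiratory chain, myoglobin and catalase, and the cardiac muscle cell makes its own. Alas1 is the 5-aminolevulinate synthase of most tissues and is held down by heme itself, while Alas2 is the form of the red cell lineage. Fech, the last enzyme, carries an iron-sulfur cluster.

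All hearts were from females. Knock-out mice (KO) lacked 1 gene through a conditional deletion driven by MCK, the muscle creatine kinase promoter, which is active in heart and skeletal muscle, and wild-type mice (WT) did not. The ages were 4 and 10 weeks, each age with 4 littermates, of which 2 were KO and 2 WT. Age and litter therefore cannot be told apart in any comparison between the ages. Each heart gave total RNA for 1 of 8 Affymetrix mouse genome arrays. A whole heart also holds fibroblasts, vessel cells, macrophages and blood, which the driver does not target, and in such bulk RNA fewer cells of a type and less RNA per cell cannot be told apart. Levels are given as log2 of the normalised intensity, for replicate 1 and then replicate 2 of a group; a difference of -1 on this scale is a 2-fold lower intensity. They are set against each other for the same probe set only. KO minus WT differences come from a limma model over all genes, as the estimate ± its standard error (SE) with a p-value adjusted over the 18193 genes, and a gene was called where that p was under 0.05. These p-values rest on the spread between the 2 mice of a group, pooled over the 4 groups and drawn by limma towards that of all genes.

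All 8 arrays carried high signal for the cardiac muscle markers, with summed intensities of 89730 to 114984 over 8 genes. At 10 weeks the KO hearts had more signal for fibroblast genes (5 of 6 called higher, median difference 1.13) and macrophage genes (5 of 8 higher, median 0.70), and 3 of 8 cardiac muscle genes were lower (median -0.31). The array of WT replicate 1 at 10 weeks stood apart, with summed kidney genes at 934 against 108 to 308 on the other 7 arrays. Summed liver genes ranged from 397 in KO replicate 1 at 4 weeks to 5231 on that WT array. They were also high at 4 weeks in KO replicate 2, at 4950, and in WT replicate 2, at 3284. Summed atrial genes also moved with the groups: they were 6526 and 9520 in WT and 13386 and 28392 in KO at 4 weeks, and 16183 and 24372 in WT and 23815 and 23532 in KO at 10 weeks. None of the 6 atrial genes was called at 4 weeks (median KO minus WT difference 1.27, 4 with an unadjusted p under 0.05), and at 10 weeks 1 was higher and 1 lower (median -0.58). Nppa was the brightest of them in the 10-week KO hearts, at log2 14.23 and 14.29 against 12.99 and 13.44 in WT. Myl7, Myl4, Sln, Nr2f2 and Tbx5 had lower means in KO than in WT at that age. The 10-week sums thus do not show the direction of those genes. The part of these other cells and of atrial content in the differences below was not tested.

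The stretches of 250 bases before the annotated start are shown for the 4 genes that were called lower together at 10 weeks and, for contrast, for Alas2, the red cell synthase. They are from RefSeq (GRCm38.p6), on the gene's strand, 5′ to 3′, and capitals mark matches to a motif on either strand: CACGTG, the E-box of MYC and USF factors, the site of NRF1, and GATAA, the core of GATA factors.
Alad (chr4:62520064-62520313, minus strand): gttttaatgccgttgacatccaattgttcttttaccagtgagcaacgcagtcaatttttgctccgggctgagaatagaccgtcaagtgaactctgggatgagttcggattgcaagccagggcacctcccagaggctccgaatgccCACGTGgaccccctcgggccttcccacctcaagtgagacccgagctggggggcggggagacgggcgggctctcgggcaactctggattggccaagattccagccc
Uros (chr7:133709296-133709545, minus strand): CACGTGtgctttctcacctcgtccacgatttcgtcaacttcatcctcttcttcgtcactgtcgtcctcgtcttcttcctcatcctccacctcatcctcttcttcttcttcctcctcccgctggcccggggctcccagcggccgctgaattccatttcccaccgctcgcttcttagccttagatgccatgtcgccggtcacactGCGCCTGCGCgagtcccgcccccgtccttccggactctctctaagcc
Urod (chr4:116994414-116994663, minus strand): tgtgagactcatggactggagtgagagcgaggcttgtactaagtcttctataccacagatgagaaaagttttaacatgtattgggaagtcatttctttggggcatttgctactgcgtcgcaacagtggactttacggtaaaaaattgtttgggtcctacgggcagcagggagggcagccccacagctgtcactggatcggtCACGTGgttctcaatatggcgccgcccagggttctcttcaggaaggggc
Abcb6 (chr1:75180393-75180642, minus strand): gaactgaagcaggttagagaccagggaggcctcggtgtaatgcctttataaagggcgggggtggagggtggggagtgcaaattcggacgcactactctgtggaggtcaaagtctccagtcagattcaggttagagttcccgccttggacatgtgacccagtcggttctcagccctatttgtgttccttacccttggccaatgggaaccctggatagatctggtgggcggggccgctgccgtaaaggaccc
Alas2 (chrX:150547167-150547416, plus strand): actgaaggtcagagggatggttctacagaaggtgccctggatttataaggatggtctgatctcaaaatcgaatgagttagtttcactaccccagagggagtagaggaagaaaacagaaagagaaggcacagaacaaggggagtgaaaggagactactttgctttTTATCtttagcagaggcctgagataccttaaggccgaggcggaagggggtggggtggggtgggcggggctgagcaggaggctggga
Matches were searched in 12 windows of 300 bases (250 before to 50 after a start) of 9 of the genes, all but Fech, and no match of 1 motif overlapped one of another. The E-box was in windows of 3 genes: Alad, with its first base at -105 from the start, Uros at -250 and Urod at -49. It was in 7.15% of all 32851 windows in the table, and Abcb6, which also fell, had none. The NRF1 site was in windows of Uros, at -47 (GCGCCTGCGC in the line above), Abcb10 and Alas1, against 4.6% of all windows. GATAA was at -86 in Alas2, where the line above shows it as TTATC on the opposite strand, and also in a window of Cpox and in a further window of Uros, against 25.4% of all windows. The stress motifs TGATGCAA (ATF4 with a CEBP factor, 0.895% of all windows) and TGACNNNGC (antioxidant response element, 12.4%) had no match in windows of the 9 genes. A match describes these letters only.

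At 10 weeks the middle of the pathway fell in the KO hearts and its ends were not called. Of the 10 genes, 4 were lower: Alad, Uros and Urod, which carry out cytosolic steps, and the transporter Abcb6. None was higher, and the same 4 were the genes with an unadjusted p under 0.05, which 23.6% of all genes had. Across all genes limma's adjusted p called 6.89% lower at this age, 5.19% higher and 12.1% in either direction. All 10 genes had a mean level above the median of all genes. With genes below that median left out, the same 4 were called, against 13.3% of genes lower and 22.5% in either direction. The median difference of the 10 genes was -0.54, against 0.00 over all 18193 genes, and 9 of the 10 had a difference below 0. That median depended on the probe sets. It was -0.43 with a gene's probe sets averaged, and -0.26 over 9 genes without probe sets that share sequence between transcripts. The plot along the pathway sets the 10 differences in the order of the steps.

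**Figure D1:**
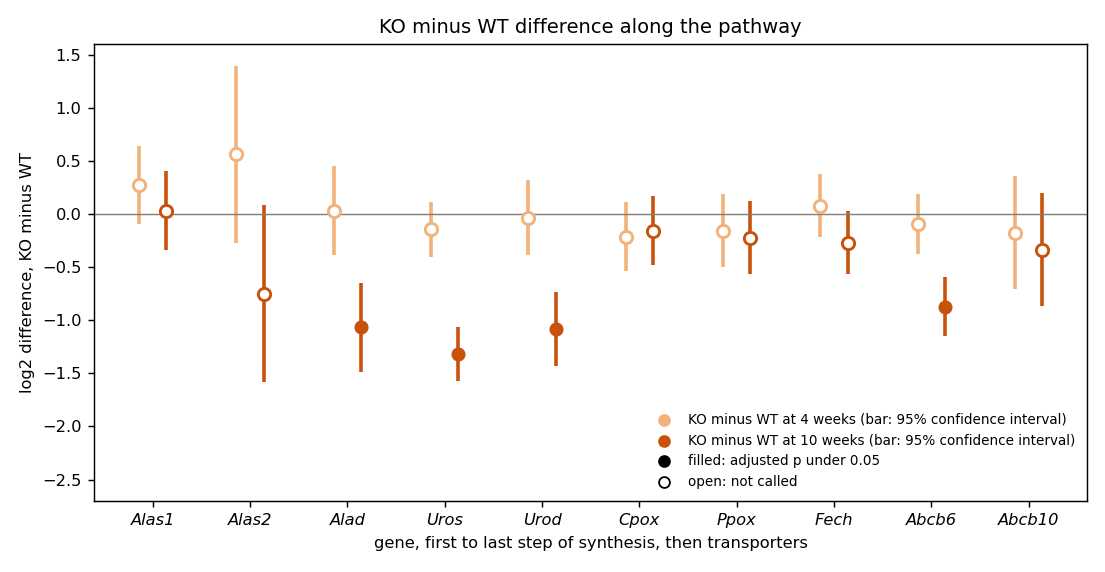
KO minus WT log2 difference (vertical axis) of each gene in the order of the pathway (horizontal axis), at 4 weeks (light) and 10 weeks (dark), with 95% confidence intervals and filled points where the adjusted p was under 0.05. At 10 weeks Alad, Uros, Urod and Abcb6 lie between -1.32 and -0.87, and no 4-week point is filled.

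The pathway starts with the synthases. Alas1, the rate-limiting enzyme of heme synthesis outside red cells, had log2 levels of 10.13 and 10.24 in the WT hearts at 10 weeks and 9.98 and 10.46 in the KO hearts. The KO levels lay on both sides of the WT ones. The difference was 0.03 ± 0.16 (adjusted p = 0.943), with a 95% interval from -0.34 to 0.40. A fall as large as that of Alad, Uros or Urod lies outside that interval.

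Alas2, the synthase of the red cell lineage, stood at 9.38 and 8.42 in WT and at 8.67 and 7.63 in KO at 10 weeks. The groups overlapped, and its replicates lay farther apart than the group means. The difference of -0.75 ± 0.37 was not called (adjusted p = 0.269, 95% interval from -1.58 to 0.08). Without WT replicate 2 the difference was -1.23 and was called (adjusted p = 0.0407), in a fit that called 8.63% of all genes lower. Without WT replicate 1 it was -0.27 (adjusted p = 0.753), and without KO replicate 2 it was -0.23 (adjusted p = 0.823).

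Alad joins 2 molecules of aminolevulinate into porphobilinogen. At 10 weeks its levels were 7.69 and 7.68 in WT and 6.31 and 6.92 in KO. Both KO hearts were below all 6 other hearts, whose lowest level was 7.45. Alad fell by 1.07 ± 0.19 on the log2 scale, or 2.09-fold (adjusted p = 0.00593). Its other probe set, at a lower signal, differed by -0.26 (adjusted p = 0.308 among all probe sets), so the call rests on the brighter probe set.

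Uros closes the linear tetrapyrrole into the ring of uroporphyrinogen III. Its levels at 10 weeks were 8.94 and 8.84 in WT and 7.55 and 7.59 in KO, and the 6 hearts of the other groups lay between 8.57 and 8.94. The 2 KO hearts were thus close together and well below the rest. Uros fell by 1.32 ± 0.11, or 2.49-fold (adjusted p = 0.000203), the largest fall among the 10 genes on the probe sets used. Its other probe set was dim, with a mean log2 level of 5.07, and differed by -0.07 (adjusted p = 0.885 among all probe sets). Averaged over both probe sets the fall was 0.69 and was still called (adjusted p = 0.00441).

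Urod removes carboxyl groups from that ring to give coproporphyrinogen. Its levels at 10 weeks were 10.24 and 9.86 in WT and 8.99 and 8.94 in KO. Both KO hearts were below all others. Urod fell by 1.08 ± 0.16, or 2.12-fold (adjusted p = 0.00235). Of the 8 genes with several probe sets (all but Alas2 and Abcb6), Urod was the only one with a further probe set called on its own. That probe set fell by 0.75 (adjusted p = 0.00811 among all probe sets).

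Cpox, Ppox and Fech act at the mitochondrion, where Cpox and Ppox oxidise the ring to protoporphyrin and Fech inserts the iron. Cpox was at 6.56 and 6.86 in WT and 6.45 and 6.66 in KO at 10 weeks, with overlapping groups and a difference of -0.16 ± 0.14 (adjusted p = 0.600, 95% interval from -0.48 to 0.17). Ppox was at 6.51 and 6.46 in WT and 6.12 and 6.42 in KO. Its groups did not overlap, but the difference of -0.22 ± 0.15 was within the error of the test (adjusted p = 0.449). Fech, the ferrochelatase, was at 9.57 and 9.83 in WT and 9.36 and 9.50 in KO, again without overlap, and differed by -0.27 ± 0.13 (adjusted p = 0.258, 95% interval from -0.57 to 0.03). The 7 other probe sets of these 3 genes differed by between -0.37 and 0.12 and none was called. For Fech the probe set used is of the kind that shares sequence between transcripts, and the brightest one that does not gave 0.12 (adjusted p = 0.803), so its direction turns with that choice. A difference of -1 lies outside the intervals of the probe sets used, and the upper bounds of all 3 lie above 0.

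Abcb6, which has been described as a carrier of coproporphyrinogen, was at 6.97 and 6.96 in WT and 6.04 and 6.15 in KO at 10 weeks. The KO pair was below every other heart, and Abcb6 fell by 0.87 ± 0.12, or 1.83-fold (adjusted p = 0.00214). Abcb10, an inner-membrane transporter of the mitochondrion needed for normal heme production in red cell precursors, was at 6.68 and 7.29 in WT and 6.35 and 6.94 in KO. Those groups overlapped, and the difference of -0.34 ± 0.24 was not called (adjusted p = 0.463). Its 2 other probe sets differed by -0.10 and -0.09.

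Counted by arrays alone, both KO hearts were below both WT hearts at 10 weeks for 6 of the 10 genes (Alad, Uros, Urod, Ppox, Fech and Abcb6), against 23.5% of all genes. No gene of the 10 had both KO hearts above, against 23.7%. The calls of Uros, Urod and Abcb6 held in each of 19 alternative settings. Abcb6 had only 1 probe set, so other choices of probe set could not change its difference. Leaving out a 4-week heart changed the error of a 10-week difference but not the difference itself. The call of Alad was lost in 1, where probe sets that share sequence with other transcripts were left out and its dimmer probe set was used (-0.26, adjusted p = 0.283).

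**Figure D2:**
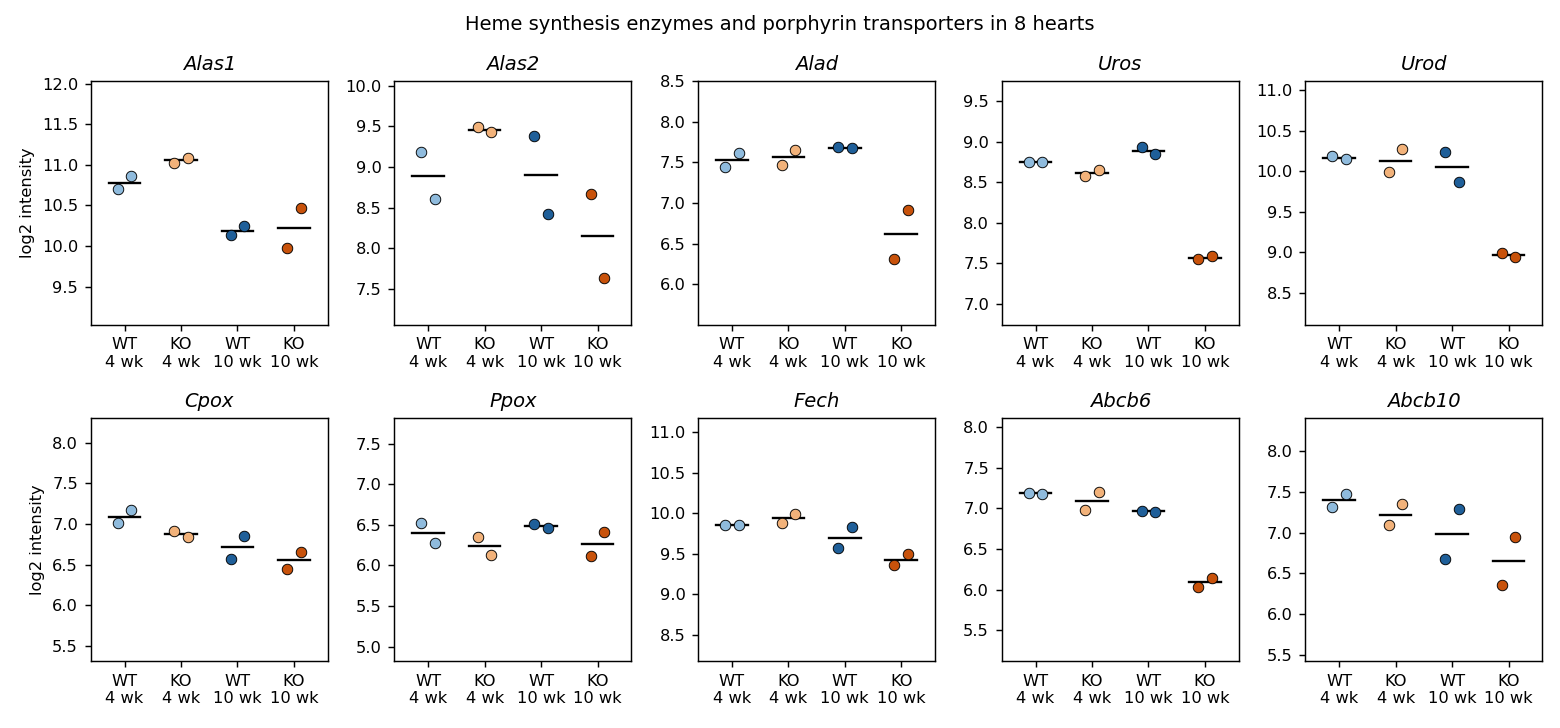
Log2 intensity (vertical axis) of the 10 genes in each heart by group (horizontal axis), points for the 2 hearts of a group and a bar for their mean. All panels span the same log2 range, and the levels of Alad, Uros, Urod and Abcb6 are low in the 10-week KO hearts alone.

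The probe sets of a gene did not all move alike. At 10 weeks 18 of the 23 probe sets had a difference below 0, and 5 were called lower when each probe set was tested singly. Of the 13 probe sets not used for a gene's value 1 was called, that of Urod. No probe set with a mean log2 level under 6 was called, as the plot of all probe sets shows.

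**Figure D3:**
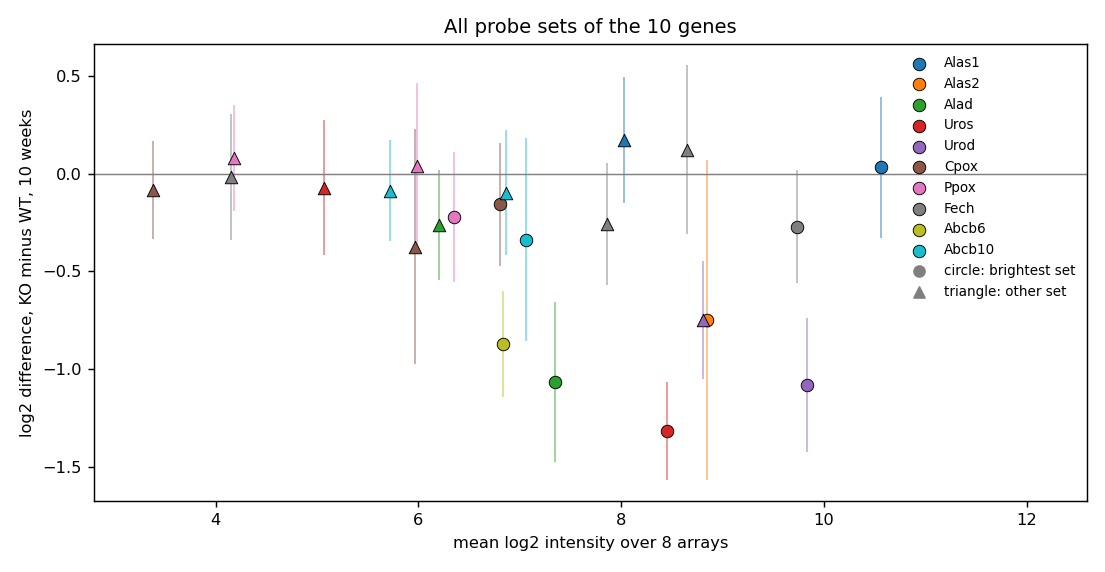
KO minus WT log2 difference at 10 weeks (vertical axis) of all 23 probe sets against their mean log2 intensity over 8 arrays (horizontal axis), with 95% confidence intervals. Circles are the probe sets used and triangles the others, and the only triangle well below 0 that was called is that of Urod, at -0.75.

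At 4 weeks no gene of the 10 was called, against 0.0275% of all genes (5 genes, all higher), and on the probe sets used none reached an unadjusted p under 0.05, which 3.73% of all genes did. The median difference of the 10 genes was -0.07. Alas1 was at 10.70 and 10.86 in WT and 11.02 and 11.08 in KO, a difference of 0.27 ± 0.16 (adjusted p = 0.999). Alas2 was at 9.18 and 8.60 in WT and 9.49 and 9.43 in KO, a difference of 0.56 ± 0.37 (adjusted p = 0.999, 95% interval from -0.270 to 1.397). Both synthases thus had the KO hearts above the WT hearts, without passing the test.

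Those 4 genes that were low at 10 weeks were near their WT levels at 4 weeks. Alad was at 7.45 and 7.61 in WT and 7.47 and 7.65 in KO, a difference of 0.03 ± 0.19. Uros was at 8.75 in both WT hearts and at 8.57 and 8.65 in KO, a difference of -0.14 ± 0.11. Urod was at 10.18 and 10.15 in WT and 9.98 and 10.28 in KO, a difference of -0.04 ± 0.16. Abcb6 was at 7.19 and 7.18 in WT and 6.98 and 7.20 in KO, a difference of -0.09 ± 0.12. Of these only Uros had both KO hearts below both WT hearts. The 95% intervals reached down to between -0.40 and -0.37 for these 4 genes, so that the falls of 0.87 to 1.32 seen at 10 weeks lie outside them.

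The remaining 4 genes differed by between -0.21 and 0.08 at 4 weeks. Cpox was at 7.01 and 7.17 in WT and 6.91 and 6.84 in KO (-0.21 ± 0.14), and Ppox at 6.52 and 6.27 in WT and 6.35 and 6.13 in KO (-0.16 ± 0.15). Fech was at 9.86 in both WT hearts and at 9.88 and 9.99 in KO (0.08 ± 0.13). Abcb10 was at 7.32 and 7.48 in WT and 7.09 and 7.35 in KO (-0.17 ± 0.24). The 13 other probe sets of the 10 genes differed by between -0.78 and 0.30 at 4 weeks. The lowest was a further probe set of Cpox, at -0.78 ± 0.27 (95% interval from -1.38 to -0.18), the only one of the 23 with an unadjusted p under 0.05 in limma's fit over all probe sets, where no probe set of the 10 genes was called. By arrays alone, both KO hearts were above both WT hearts for 3 genes (Alas1, Alas2 and Fech, against 19.4% of all genes) and below for 2 (Uros and Cpox, against 17.5%).

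Whether the KO minus WT difference itself changed between the ages was tested as the difference of the 2 differences, which share no hearts. Of the 10 genes 2 were called lower, against 1.2% of all genes: Uros, whose difference was lower at 10 weeks by -1.17 ± 0.16 (adjusted p = 0.0111), and Urod, by -1.05 ± 0.22 (adjusted p = 0.0486). Alad (-1.10 ± 0.26, adjusted p = 0.0756) and Abcb6 (-0.78 ± 0.17, adjusted p = 0.0602) were not called, nor was Alas2 (-1.31 ± 0.52, adjusted p = 0.291), which had the widest error. The median was -0.56, against -0.02 over all genes. It was -0.37 with a gene's probe sets averaged, and -0.16 over 9 genes without probe sets that share sequence between transcripts. With genes below the median level left out, 2 of the 10 were called lower, against 2.7% of genes. Both calls were lost without WT replicate 1 at 4 weeks (Uros -1.17, adjusted p = 0.0817, and Urod -1.06, adjusted p = 0.217), without WT replicate 2 at 4 weeks (adjusted p = 0.0943 and 0.239) or without KO replicate 2 at 4 weeks (adjusted p = 0.0639 and 0.190). Urod lost its call without any of 4 other hearts too (KO replicate 1 at 4 weeks, WT replicate 1, KO replicate 1 and KO replicate 2 at 10 weeks), at values between -1.19 and -0.86 and adjusted p between 0.0635 and 0.131, while without WT replicate 2 at 10 weeks 5 of the 10 genes were called lower, in a fit that called 4.35% of all genes lower.

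From 4 to 10 weeks none of the 10 genes was called in the WT hearts, against 0.115% of all genes, and 2 had an unadjusted p under 0.05, against 18.1%. These were Alas1, which was lower by -0.59 ± 0.16 at 10 weeks (adjusted p = 0.201), and Cpox, by -0.38 ± 0.14 (adjusted p = 0.245). Without WT replicate 2 at 10 weeks Cpox was called (-0.52, adjusted p = 0.0454), the only one of the 10, in a fit that called 16.2% of all genes. The other 8 genes differed by between -0.41 (Abcb10) and 0.15 (Alad). The part of litter in these values and in those of the KO hearts below was not tested.

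In the KO hearts 6 of the 10 genes fell from 4 to 10 weeks, against 7.07% of all genes. Urod fell by 1.16 ± 0.16 (adjusted p = 0.00212), Uros by 1.04 ± 0.11 (adjusted p = 0.000871), Abcb6 by 0.999 ± 0.124 (adjusted p = 0.00156), Alad by 0.94 ± 0.19 (adjusted p = 0.0130), Alas1 by 0.83 ± 0.16 (adjusted p = 0.0129) and Fech by 0.51 ± 0.13 (adjusted p = 0.0406). Alas2 had the largest difference, -1.31 ± 0.37, and was not called (adjusted p = 0.0549). With genes below the median level left out, 7 of the 10 were called lower in this comparison, against 14.2% of genes. This comparison uses the same KO hearts as those above, so the values for Alas1 are set side by side: -0.59 in WT and -0.83 in KO. The difference between these, -0.24 ± 0.23, was not called (adjusted p = 0.755).

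Several of those 6 calls rest on single hearts. Without KO replicate 2 at 4 weeks 3 remained, and Alas1 (-0.80, adjusted p = 0.108), Alad (-0.86, adjusted p = 0.120) and Fech (-0.45, adjusted p = 0.241) did not. Without KO replicate 1 at 10 weeks the same 3 were lost, Alas1 at -0.59 (adjusted p = 0.0815), Alad at -0.64 (adjusted p = 0.0697) and Fech at -0.44 (adjusted p = 0.213), while Alas2 was called (-1.83, adjusted p = 0.0352) where 2.59% of all genes were called lower. Alas1 also lost its call without KO replicate 1 at 4 weeks (-0.86, adjusted p = 0.0582). Fech kept its call without either of the 10-week WT hearts and lost it without each of the other 6 hearts, with adjusted p up to 0.241. Leaving out either 10-week WT heart also made Alas2 a call (-1.31, adjusted p = 0.0135), in fits that called 10.9% of all genes lower.

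Red cell markers are given beside Alas2, a gene of that lineage. Of 15 red cell markers 9 were measured, with summed intensities of 900 and 683 in WT and 588 and 382 in KO at 10 weeks, and of 708 and 586 in WT and 735 and 654 in KO at 4 weeks. Globin Hbb-b2, a beta chain of haemoglobin, was at 9.02 and 8.46 in WT and 8.27 and 6.87 in KO at 10 weeks, a difference of -1.17 ± 0.39 (adjusted p = 0.0914). In those 4 hearts its order was that of Alas2 but for the middle pair. Without KO replicate 1 Hbb-b2 was at -1.87 (adjusted p = 0.0104) and without WT replicate 2 at -1.45 (adjusted p = 0.0493), but without KO replicate 2 it was at -0.47 (adjusted p = 0.444). Without probe sets of shared sequence its value was 0.24 (adjusted p = 0.498), so its direction depends on the probe set. Slc4a1, the anion exchanger of the red cell membrane, fell from 6.49 and 6.34 to 5.19 and 5.34 (-1.15 ± 0.15, adjusted p = 0.00133). Klf1, a transcription factor of the red cell lineage, was at 7.13 and 6.77 in WT and 6.67 and 6.49 in KO (-0.37 ± 0.15, adjusted p = 0.164). Of the 9 markers 1 was called, and their median difference was -0.12. Hba-a1, Hba-a2, Rhag and Kel among them were dim, with group means between 2.995 and 4.630, which limits what that count and median can show. The part of blood content in the Alas2 values was not tested.

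**Figure D4:**
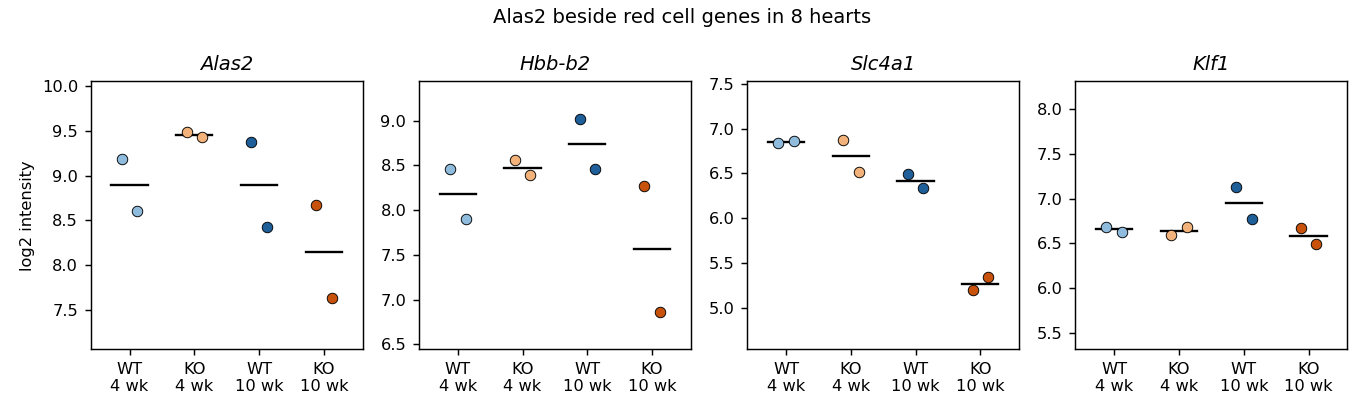
Log2 intensity (vertical axis) of Alas2 and of the red cell genes Hbb-b2, Slc4a1 and Klf1 in each heart by group (horizontal axis), points for hearts and bars for group means. Alas2 and Hbb-b2 have their lowest value, 7.63 and 6.87, in KO replicate 2 at 10 weeks, whereas both 10-week KO hearts are low for Slc4a1.

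By pattern over the 8 arrays, the genes most like Uros, with Pearson r as the measure, were Pxmp2 (r = 0.998), Cox7a1 (0.996), Ube2b (0.995), Efnb3 (0.995) and Gstk1 (0.994). They differed by between -2.93 and -1.18 at 10 weeks and by between -0.26 and -0.12 at 4 weeks. Pxmp2 is a channel of the peroxisome membrane, Cox7a1 the heart and muscle form of a cytochrome c oxidase subunit, Ube2b a ubiquitin-conjugating enzyme, Efnb3 an ephrin and Gstk1 a glutathione transferase. Among the 10 genes, Urod (0.952), Abcb6 (0.942) and Alad (0.934) were most like Uros. Ranked by r among all genes, they stood at percentiles 98.4, 97.8 and 97.5, so many genes outside the pathway were more like Uros. The genes most like Alas2 were Isg20 (0.951), Apold1 (0.931), Gpr89 (0.928), Tango6 (0.899) and Nme2 (0.896), none of them called at 10 weeks. These values describe 8 arrays that share the 4 groups.

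Genes around heme moved in both directions. Of 54 genes in 6 lists 47 were measured. At 10 weeks 6 were called higher (12.8%, against 5.19% of all genes) and 7 lower (14.9%, against 6.89%), with a median of -0.05. These shares were not matched for level. With genes below the median level left out, 13.3% of genes were lower and 22.5% were called in either direction. At 4 weeks none of the 47 was called by limma (1 gene of supply and 2 regulators had an unadjusted p under 0.05). The lists and the 10 genes are drawn together in the plot of genes around heme.

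**Figure D5:**
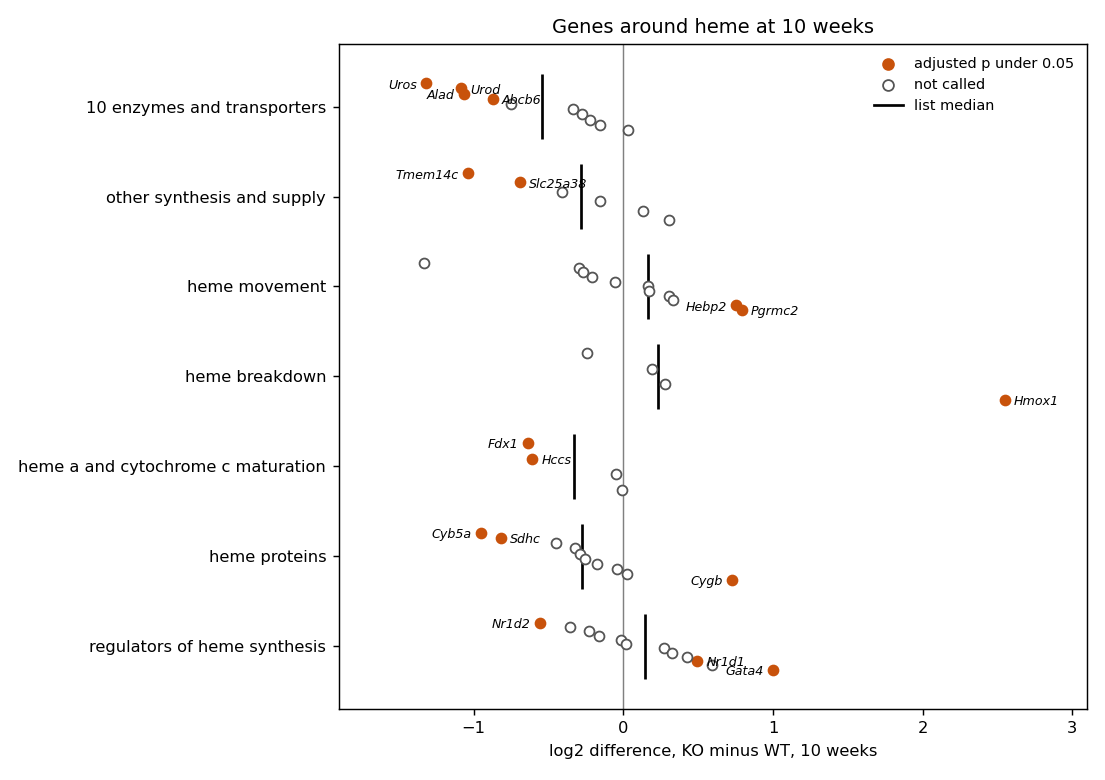
KO minus WT log2 difference at 10 weeks (horizontal axis) of the 10 enzymes and transporters and of the 6 lists of genes around heme (rows), 1 point per gene, filled and named where the adjusted p was under 0.05, with a bar at each list's median. On the probe sets used, the 10 genes have the lowest median, -0.54, and Hmox1 has the largest rise, 2.55.

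Among 6 measured genes that supply the pathway, 2 were lower at 10 weeks (median -0.28). Tmem14c, an inner-membrane protein of the mitochondrion that helps bring porphyrin in, was at 9.87 and 9.57 in WT and 8.73 and 8.63 in KO, and fell by 1.04 ± 0.14 (adjusted p = 0.0019). Slc25a38, the carrier that brings glycine into the mitochondrion, was at 7.72 and 7.54 in WT and 6.96 and 6.92 in KO, and fell by 0.69 ± 0.12 (adjusted p = 0.00543). Both kept their calls with each heart left out in turn. At 4 weeks the smallest p of the list was that of Slc25a28, a mitochondrial iron carrier, at 0.33 ± 0.12, and it was not called (adjusted p = 0.999).

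Of 11 genes of heme movement 2 rose at 10 weeks (median 0.17). Pgrmc2, which binds heme and has been described as its chaperone to the nucleus, was at 7.70 and 7.78 in WT and 8.44 and 8.62 in KO, a rise of 0.79 ± 0.12 (adjusted p = 0.00338). Hebp2, a heme-binding protein, was at 5.07 and 4.97 in WT and 5.75 and 5.79 in KO, a rise of 0.75 ± 0.14 (adjusted p = 0.00887). The Hebp2 call was lost without KO replicate 2 at 10 weeks (0.73, adjusted p = 0.0563) and when its probe sets were averaged (0.32, adjusted p = 0.0740), and another of its probe sets gave -0.10. At 4 weeks Hebp1, of the same family, had the smallest p of the list (0.30 ± 0.21, adjusted p = 0.999).

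Heme breakdown is opened by heme oxygenase. Of 4 genes 1 rose: Hmox1, the inducible heme oxygenase, was at 5.97 and 6.41 in WT and 9.14 and 8.34 in KO at 10 weeks, a rise of 2.55 ± 0.25, or 5.85-fold (adjusted p = 0.000397), called with each heart left out in turn. At 4 weeks it was at 6.39 and 6.30 in WT and 6.35 and 6.72 in KO, and the difference between the ages was 2.36 (adjusted p = 0.0180), a call lost without any of the 4 hearts of 4 weeks (2.17 to 2.54, adjusted p from 0.0622 to 0.116). Blvra, a biliverdin reductase, had the smallest 4-week p of the list, at 0.14 ± 0.13 (adjusted p = 0.999), and at 10 weeks it was at 0.19 ± 0.13 (adjusted p = 0.460).

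Of 4 genes that turn heme into heme a or attach it to cytochrome c, 2 were lower at 10 weeks (median -0.33). Fdx1, a mitochondrial ferredoxin, fell from 9.96 and 10.10 to 9.25 and 9.53 (-0.64 ± 0.13, adjusted p = 0.0132). Hccs, which attaches heme to cytochrome c, fell from 9.72 and 10.02 to 9.07 and 9.45 (-0.61 ± 0.16, adjusted p = 0.0371). Without KO replicate 1 at 10 weeks neither was called (Fdx1 -0.50, adjusted p = 0.0967, and Hccs -0.42, adjusted p = 0.229), and Hccs lost its call without each of 6 hearts. Cox15, which makes heme a, was at -0.01 ± 0.21 at 10 weeks (adjusted p = 0.991) and at -0.16 ± 0.21 at 4 weeks.

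Of 10 heme proteins 1 rose and 2 fell at 10 weeks (median -0.27). Cygb, cytoglobin, which fibroblasts also express, rose from 8.41 and 8.76 to 9.39 and 9.24 (0.73 ± 0.14, adjusted p = 0.00981). Sdhc, a membrane subunit of respiratory complex II that holds its heme, fell from 10.49 and 10.63 to 9.53 and 9.95 (-0.81 ± 0.17, adjusted p = 0.0132), and Cyb5a, cytochrome b5, from 10.95 and 10.20 to 9.63 and 9.61 (-0.95 ± 0.26, adjusted p = 0.0423). Without KO replicate 1 at 10 weeks none of the 3 was called (Cygb 0.66, adjusted p = 0.0742, Sdhc -0.61, adjusted p = 0.0972, and Cyb5a -0.96, adjusted p = 0.165). Cyb5a was called without 1 of the 8 hearts only, and without WT replicate 1 at 10 weeks it was at -0.58 (adjusted p = 0.170). Sdhc had the smallest 4-week p of the list, at -0.30 ± 0.17.

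Of 12 regulators of heme synthesis 2 rose and 1 fell at 10 weeks (median 0.14). Nr1d1 and Nr1d2 encode the Rev-erb receptors, which bind heme and repress genes of the body clock. They went opposite ways: Nr1d1 rose from 6.63 and 6.53 to 6.996 and 7.15 (0.49 ± 0.13, adjusted p = 0.0322), and Nr1d2 fell from 9.74 and 9.81 to 9.17 and 9.26 (-0.56 ± 0.12, adjusted p = 0.0135). Nr1d2 had the smallest 4-week p of the list as well, at -0.36 ± 0.12 (adjusted p = 0.999). Gata4, a cardiac transcription factor, rose from 7.01 and 7.98 to 8.35 and 8.65 (1.001 ± 0.264, adjusted p = 0.0377). Without KO replicate 1 at 10 weeks none of the 3 was called (Nr1d1 0.57, adjusted p = 0.0714, Nr1d2 -0.52, adjusted p = 0.0842, and Gata4 1.15, adjusted p = 0.0939), and Gata4 without WT replicate 1, its lowest heart, was at 0.52 (adjusted p = 0.0875). Nr1d1 kept its call without 1 of the 8 hearts only (WT replicate 1 at 10 weeks), and so did Gata4 (WT replicate 2 at 10 weeks).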

How the data were processed

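Total RNA of 8 hearts was extracted with TRIzol, biotin-labelled and hybridised to 1 array each, per the labels' protocols. The deposited values were linear intensities, 1 per probe set. The submitters' processing notes name GCOS 1.3 and RMA as the tools the authors used; the RMA version was not given in the sources used here. Array medians ran from 34.3 to 37.3. RMA brings arrays to 1 distribution, so a shift of all genes is lost, and no detection calls were used. Of 45101 probe sets 64 controls were left out; 34945 named 1 gene, 932 several and 9160 none, by GEO's platform annotation, with 34741 updated by Entrez identifier.

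Log2 intensities were fitted with limma 3.58.1 in R 4.3.3 (lmFit, contrasts.fit, eBayes; 1 mean per group, 4 residual degrees of freedom, all 8 arrays), two-sided, with Benjamini-Hochberg adjustment over 18193 genes and calls under 0.05. The number of arrays limits the precision. Replicate numbers were not used as pairs. The script was tested on simulated data for the 10-week comparison over 18193 genes: of 50 genes each it recovered 32 changed by -1, 27 by 1, 50 by -2 and 47 by 2, with 4 false calls. The alternatives were other choices of probe set, filters, normalization, variance settings, a block for the replicate number, and fits without each array.

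Named were all 10 genes with every probe set; per list and age up to 3 called genes of largest difference, or else the gene of smallest p; and the 5 genes most like Uros and Alas2. The red cell genes beside Alas2 were picked knowing their values. The 10 genes and all lists were chosen with earlier results of these data known. Promoter windows came from RefSeq; the level of the deleted gene is not reported here.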

Additional observations from a re-analysis of the deposited data

Results flagged for a closer look

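For 4 of the genes named, the KO minus WT difference itself differed between the ages by limma's test of the difference. That of Uros was lower at 10 weeks than at 4 weeks by -1.17 on the log2 scale (adjusted p = 0.0111), and that of Urod by -1.05 (adjusted p = 0.0486). Among the genes around heme, that of Pgrmc2 was higher by 0.84 (adjusted p = 0.0467) and that of the heme oxygenase Hmox1 by 2.36 (adjusted p = 0.0180). Hmox1 lost this call without any of the 4 hearts of 4 weeks, with values from 2.17 to 2.54 and adjusted p from 0.0622 to 0.116. Pgrmc2 kept it without WT replicate 2 at 10 weeks and lost it without each of the other 7 hearts, with values from 0.75 to 0.93. With 2 hearts per group, no group was large enough for a test of outlying hearts.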

How the results depend on the processing

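The count of 4 genes lower at 10 weeks ran from 3 to 5 over 19 alternatives, and none of the 10 was called at 4 weeks under any. The count for the difference between the ages, 2, was 1 with every probe set tested singly, with a gene's probe sets averaged and without probe sets of shared sequence. It was also 1 with arrays centred on their medians and with trend and robust settings. Leaving out each array in turn gave 0 to 5, in fits that called 0.0989% to 4.35% of all genes lower. The 6 genes lower with age in KO hearts became 3 with probe sets averaged, where 6.11% of all genes were called lower. Without each array in turn they became 3 to 7, in fits that called 1.82% to 10.9% of all genes lower. In WT hearts the count without each array was 0 to 1. Without probe sets of shared sequence, 2 called values changed sign, Alad with age in KO hearts (0.18, adjusted p = 0.424) and Hebp2 at 10 weeks (-0.10, adjusted p = 0.817). Values that were not called did so too: Fech at 10 weeks (0.12), at 4 weeks (-0.07) and for the difference between the ages (0.19), Alad at 4 weeks (-0.11), Hebp2 for the difference between the ages (-0.12), and Hbb-b2 at 10 weeks (0.24) and for that difference (0.14). Alas2 had no value. With the replicate number as a block, 5 genes were called lower for the difference between the ages. That fit called 2.3% of all genes lower, against 1.2% without the block. Alas2 was then called lower at 10 weeks (adjusted p = 0.0112), where 8.54% of all genes were called lower, against 6.89% without the block. Same-numbered hearts deviated together with r = 0.302 at 4 weeks and 0.230 at 10 weeks over genes, but the labels do not say that a number pairs hearts, and an age has 2 pairs. The causes of these changes were not tested. Dim probe sets and 2 hearts per group limit what could be detected.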
